A study of Arabidopsis thaliana with 4 samples.

Results

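Tau class glutathione transferases were followed in whole Arabidopsis thaliana seedlings exposed to aluminium. They were taken as the probe sets that the platform's probe table paired with exactly 1 gene named GSTU plus a number. The rule found 11 probe sets for 11 genes, among 13513 probe sets with 1 gene and 22746 plant probe sets in all. A reference gene table of assembly TAIR10.1 lists 28 tau loci, with GSTU17 under the symbol ERD9, and the other 17 were not analysed here. Seedlings with roots of 2 to 3 cm were moved from agar plates into liquid one-sixth strength MS medium with 1% sucrose, 500 ml in each flask. They stayed there for 16 h, either with 50 µM aluminium or mock-treated as controls. Which array had aluminium was taken from the sample titles, since the treatment text of the labels, the same on all 4 samples, describes the aluminium medium. Each group had 2 Affymetrix ATH1 arrays, described in the labels as biological replicates, and each array carried total RNA of 100 pooled seedlings. The labels used here give no genotype, accession or seedling age, and no mutant or transgene is named.

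Tau class enzymes are specific to plants and make up the largest class of glutathione transferases in Arabidopsis. They join the tripeptide glutathione to reactive, electrophilic compounds such as herbicides and products of lipid oxidation, and several also reduce organic hydroperoxides. The conjugates are moved into the vacuole by ABCC transporters. Many tau genes are known to be switched on by toxic chemicals, oxylipins and salicylate through TGA transcription factors. Aluminium ions are toxic to root tips, and oxidative damage to membranes is part of the injury.

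No tau gene passed the test for a difference between aluminium and control. Of the 11 genes, 6 had a higher mean with aluminium (GSTU15, GSTU16, GSTU22, GSTU25, GSTU27 and GSTU28) and 5 a lower mean (GSTU18, GSTU20, GSTU21, GSTU23 and GSTU26). A higher mean was found for 50.4% of all plant probe sets and a lower mean for 49.6%, so 6 of 11 (54.5%) was close to that background. The differences ran from −0.83 for GSTU18 to 0.94 for GSTU22 on the scale log2(intensity + 16), on which changes of dim probe sets are understated. Their median was 0.20, against 0.01 for all plant probe sets, and their median absolute size was 0.63, as for all plant probe sets. The test was limma's moderated two-sided test, with Benjamini-Hochberg adjustment over all 22746 plant probe sets and a threshold of 0.05. It called 0 of the 11 genes and 0 plant probe sets (0%), and the adjusted p of the 11 genes lay between 0.966 and 0.999. At an unadjusted p under 0.05 it called 0 of the 11 genes and 1084 plant probe sets (4.77%).

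The arrays differed in their own controls. Hybridization controls, which are bacterial and phage sequences added to every array, had a geometric mean intensity of 131440 on aluminium replicate 1 and 51057 on control replicate 1, against 11226 and 6339 on the aluminium and control arrays of replicate 2. GAPDH, read near both ends of its transcript, gave a 3′ signal over its 5′ signal, a ratio that rises when RNA is shortened, of 3.52 on aluminium replicate 1 and 1.44 to 1.71 on the others. Of the listed markers, 4 of 10 for green tissue and 4 of 8 for root were measured. Markers of green tissue were present, with 3 of 4 measured green markers above background on every array. Of the 4 measured root markers 0 were above background on every array, and 1 or 2 were on any given array. The root marker EXPA7 was under background throughout. The summed intensity of the green markers was 5716 and 11950 with aluminium (replicates 1 and 2) and 32010 and 22320 in controls, and that of the root markers was 1573 and 2261 against 2646 and 1845. The root sum hid opposite swings of single markers between replicate numbers. PRX44 was bright in replicate 1 (aluminium 944, control 1050) and dim in replicate 2 (aluminium 19, control 101). EXPA18 was dim in replicate 1 (aluminium 56.1, control 168) and bright in replicate 2 (aluminium 1170, control 749). PYK10 followed neither swing. It read 389 and 976 on the aluminium arrays and 1060 and 901 on the controls, under background on aluminium replicate 1 alone. A lower marker sum from a whole seedling cannot separate fewer cells of a type from less RNA per cell. The part of any of these in the values of the tau genes was not tested.

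The background level of an array was set at the 95th percentile of its 27 bacterial probe sets, which came to 422 to 586. This is a strict level, above the median of the plant probe sets on every array (328 to 351). A value under it does not show that a gene was not expressed. GSTU16, GSTU25 and GSTU27 lay above background on all 4 arrays. GSTU22 did so on 3 arrays, GSTU26 on 2, and GSTU15, GSTU18, GSTU20 and GSTU21 on 1 array each. GSTU23 and GSTU28 did so on 0 of 4, so their values lay within the range that bacterial sequences gave. Of all 22746 plant probe sets, 4100 lay above background on all 4 arrays and 7890 on none. By array, 35.1% to 45.3% of plant probe sets lay above it, beside 4 to 6 of the 11 tau genes. Against the median of the bacterial probe sets, a looser level of 73.5 to 139, 10 of the 11 genes were higher on every array and GSTU23 was higher on 2. Each probe set has its own brightness, so levels were compared between arrays and not between genes. All 11 probe set names lack the suffix that the manufacturer gives to probe sets shared by several transcripts, but signal from close paralogs among the tandem copies cannot be told apart here.

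**Figure D1:**
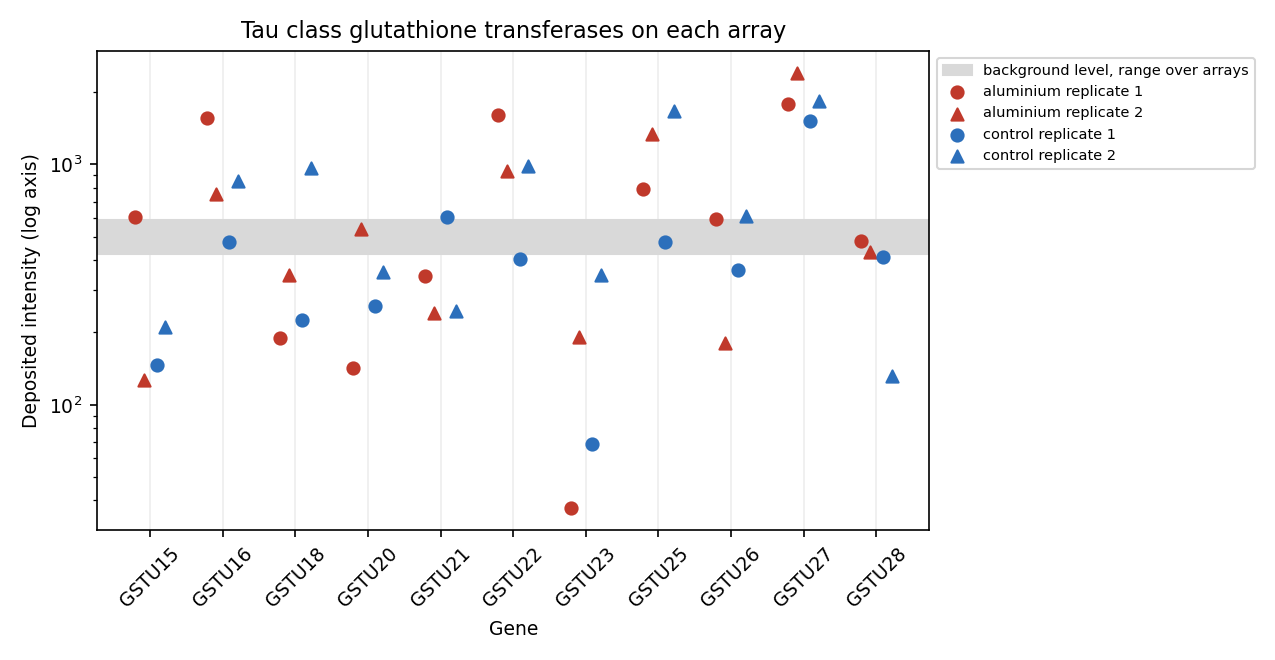
Deposited intensity (vertical log axis) of each tau class gene (horizontal axis) on the 2 aluminium arrays (red) and 2 control arrays (blue), with circles for replicate 1 and triangles for replicate 2; the grey band spans the background level of the 4 arrays, 422 to 586. In 10 of the 11 genes red and blue points interleave; GSTU28 is the exception, and GSTU27 has the tightest cluster of points.

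GSTU22, GSTU16 and GSTU15 each had their highest value on aluminium replicate 1, and GSTU22 and GSTU16 also had their lowest value on control replicate 1. GSTU22 read 1604 and 938 on the aluminium arrays and 403 and 982 on the controls, replicate 1 being given first here and for every gene. The second control array was thus brighter than the second aluminium array, and the groups overlapped. On the log2 scale the aluminium mean was 10.28 ± 0.54 and the control mean 9.34 ± 0.88 (SD, n = 2 each). They differed by 0.94, or 1.92-fold, and the 95% interval ran from −0.99 to 2.88 (limma adjusted p = 0.966). On the same scale GSTU22 was 3.86-fold higher with aluminium between the replicate 1 arrays, and between the replicate 2 arrays it was 1.05-fold lower. Without aluminium replicate 1 the difference was 0.56, and without control replicate 1 it was 0.32.

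GSTU16 read 1566 and 753 on the aluminium arrays and 474 and 853 on the controls, so the replicate 1 arrays were far apart and the replicate 2 arrays close. The difference was 0.76 (standard error 0.77), with an interval from −1.13 to 2.64 (limma adjusted p = 0.966). It was 0.24 without aluminium replicate 1 and 1.28 without aluminium replicate 2, and 0.34 without control replicate 1 and 1.17 without control replicate 2. GSTU15 read 603 and 127 on the aluminium arrays and 146 and 211 on the controls, so that 1 array was high and 3 were low. The difference of 0.63 (interval from −1.62 to 2.89, limma adjusted p = 0.980) turned to −0.42 without aluminium replicate 1, the only array on which the gene was above background. The 2 aluminium arrays of GSTU15 differed 4.75-fold, more than the groups did.

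GSTU15 and GSTU16 lie near each other on chromosome 1, with 3 protein-coding genes between them in the reference table. Their profiles over the 4 arrays, each centred on its own mean, were 0.80 apart as a Euclidean distance on the log2 scale. The median over all 55 pairs of tau genes was 1.97. Closeness was not particular to this pair. The centred profile of GSTU16 was 0.90 and −0.14 on the aluminium arrays and −0.79 and 0.04 on the controls. That of GSTU22, which is not its neighbour, was 0.85 and 0.09, and −1.10 and 0.15. That of GSTU15 was 1.37 and −0.74, and −0.56 and −0.07. This distance is a description over 4 arrays.

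GSTU28 was the only tau gene whose groups did not overlap in the deposited values, and GSTU27 joined it after quantile normalization. GSTU28 read 479 and 433 on the aluminium arrays and 414 and 132 on the controls, so 3 arrays were alike and control replicate 2 was low. The first control array came close to both aluminium arrays, and all 4 values were under the background level of their array. The difference was 0.90 or 1.87-fold (interval from −1.07 to 2.87, limma adjusted p = 0.966). It rested on control replicate 2, without which it was 0.13. Groups without overlap were found for 1 of 11 tau genes (9.09%) and for 32.7% of all plant probe sets, 16.5% higher and 16.2% lower with aluminium. An exact two-sided permutation test of 2 arrays against 2 cannot give a p under 0.333. At least 2-fold between means together with no overlap was met by 0 of 11 tau genes, and by 19.6% of all plant probe sets (9.66% higher and 9.93% lower with aluminium).

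GSTU27 was the steadiest of the 11 measured genes. It read 1786 and 2413 on the aluminium arrays and 1510 and 1841 on the controls, above background on every array, and the highest array exceeded the lowest 1.60-fold. The groups overlapped narrowly, since the first aluminium array lay under the second control array. The log2 means were 11.03 ± 0.30 for aluminium and 10.72 ± 0.20 for control (SD, n = 2 each). They differed by 0.31, with limits of the 95% interval at −1.35 and 1.98 (limma adjusted p = 0.988). It was 0.24 between the replicate 1 arrays, 0.39 between the replicate 2 arrays, and from 0.10 to 0.53 when any 1 array was left out. The residual SD of 0.26 placed the gene at percentile 10.5 of all plant probe sets. GSTU27 is also the 1 measured tau gene on chromosome 3, while the other 10 are on chromosome 1.

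GSTU25 and GSTU26 are direct neighbours. GSTU25 is known for conjugating the explosive TNT, and GSTU26 for being induced by chloroacetanilide herbicides. GSTU25 read 787 and 1335 on the aluminium arrays and 476 and 1662 on the controls, and both replicate 2 arrays were thus brighter than both replicate 1 arrays. The difference was 0.20 (interval from −1.94 to 2.33, limma adjusted p = 0.999), and its sign turned without aluminium replicate 2 (−0.18) or control replicate 1 (−0.69). GSTU26 read 591 and 180 on the aluminium arrays and 364 and 612 on the controls, with the low value on aluminium replicate 2. The difference was −0.50 (interval from −2.57 to 1.57, limma adjusted p = 0.984), and 0.31 without aluminium replicate 2. Adjacent position did not go with alike profiles here, as the pair was 1.97 apart, equal to the median of all pairs.

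GSTU20, GSTU21, GSTU22 and GSTU23 stand next to each other on chromosome 1 with 0 protein-coding genes between neighbours, and GSTU19 follows GSTU20. Each of the 4 was brightest on a different array. GSTU20, known as FIP1 for binding the jasmonate-conjugating enzyme FIN219/JAR1, read 142 and 538 on the aluminium arrays and 259 and 356 on the controls. Its aluminium arrays were thus the lowest and the highest, and the difference was −0.11 (interval from −2.22 to 1.99, limma adjusted p = 0.999). GSTU21 read 344 and 241 on the aluminium arrays and 607 and 246 on the controls, where control replicate 1 stood out. Its difference was −0.41 (interval from −2.30 to 1.48, limma adjusted p = 0.988), and 0.21 without that array. GSTU23 read 37.2 and 192 on the aluminium arrays and 68.4 and 346 on the controls. Both of its replicate 1 arrays were dimmer than both replicate 2 arrays, and the array values spanned 9.32-fold, the widest range of the 11 genes. The difference for GSTU23 was −0.73 (interval from −3.37 to 1.90, limma adjusted p = 0.980). Without aluminium replicate 1 it was 0.25, and without control replicate 2 it was 0.32. The distances between neighbouring profiles in this run were 2.04 for GSTU20 and GSTU21, 2.24 for GSTU21 and GSTU22, and 2.63 for GSTU22 and GSTU23.

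GSTU18, whose span in the TAIR10.1 table overlaps that of its neighbour GSTU17, had the largest difference below 0. It read 190 and 347 on the aluminium arrays and 225 and 969 on the controls, with the high value on control replicate 2. The difference was −0.83 or 1.78-fold lower (interval from −3.10 to 1.43, limma adjusted p = 0.968). Leaving out control replicate 2 gave 0.18, and leaving out control replicate 1 gave −1.85. Both the size and the sign of the difference of means thus rested on control replicate 2, though between the replicate 1 arrays the difference was −0.23.

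**Figure D2:**
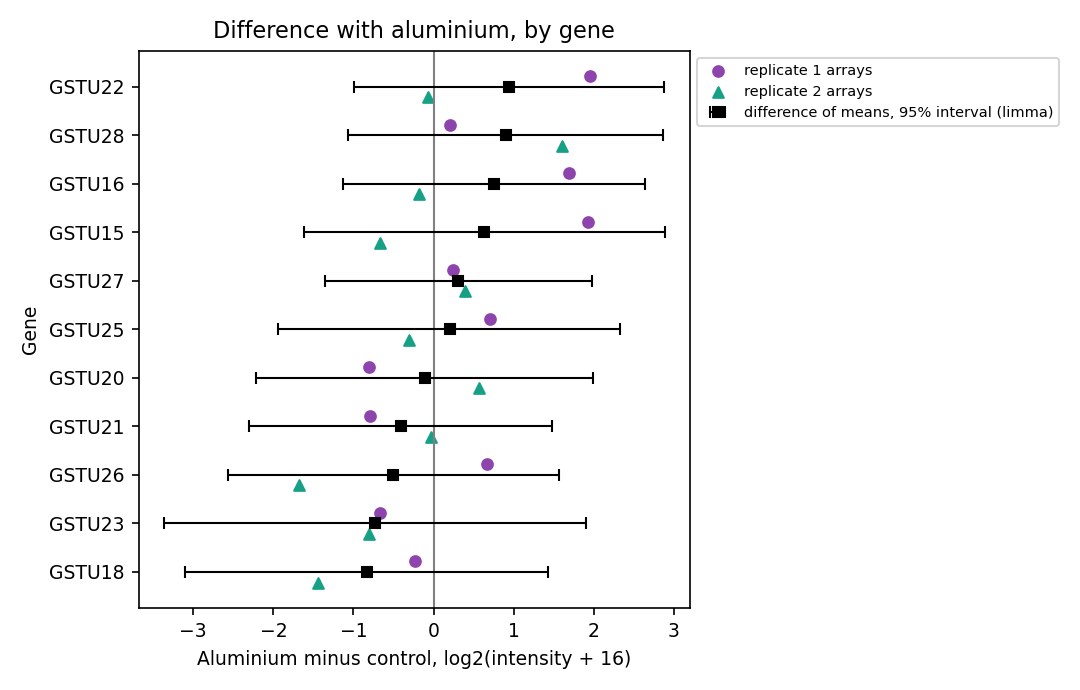
Difference in log2(intensity + 16) between aluminium and control (horizontal axis) for each tau class gene (vertical axis): squares with bars give the difference of means with the 95% interval from limma, circles the difference between the replicate 1 arrays and triangles that between the replicate 2 arrays. All 11 intervals include 0, and in 6 genes the circle and the triangle lie on opposite sides of 0.

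The differences were not alike in the 2 replicate numbers. Between the replicate 1 arrays 7 of 11 tau genes were higher with aluminium (63.6%, against 51.5% of all plant probe sets). Between the replicate 2 arrays 3 of 11 were (27.3%, against 48.8%), namely GSTU20, GSTU27 and GSTU28. The median difference of the 11 genes was 0.24 in replicate 1 and −0.18 in replicate 2, where all plant probe sets had 0.05 and −0.02. At least 2-fold higher with aluminium were GSTU15, GSTU16 and GSTU22 in replicate 1, 3 of 11 or 27.3% against 24.2% of all plant probe sets. In replicate 2 this was met by GSTU28, 1 of 11 or 9.09% against 16.0%. At least 2-fold lower were 0 of 11 in replicate 1, against 24.3%, and GSTU18 and GSTU26 in replicate 2, 18.2% against 16.1%. GSTU27 and GSTU28 were higher with aluminium in both replicate numbers, 18.2% against 26% of all plant probe sets, and GSTU18, GSTU21 and GSTU23 were lower in both, 27.3% against 25.7%. None of these shares was tested against its background, and 11 related genes on the same arrays are not replicates.

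**Figure D3:**
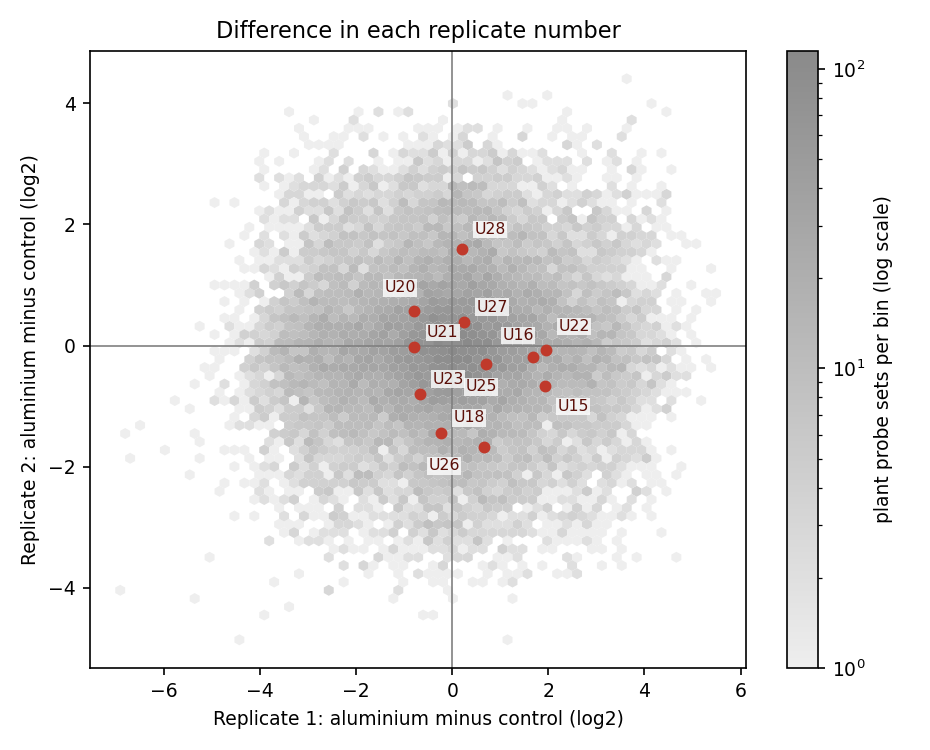
Difference between aluminium and control in log2(intensity + 16) for the replicate 1 arrays (horizontal axis) and the replicate 2 arrays (vertical axis), with grey hexagons counting all 22746 plant probe sets on a log scale and red points for the 11 tau class genes, labelled without the letters GST. GSTU15, GSTU16 and GSTU22 lie far to the right at or under 0 on the vertical axis, and GSTU28 lies high near 0 on the horizontal axis.

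The spread between arrays of the same group was larger than the difference in most of these genes. In 10 of 11 tau genes the 2 arrays of at least 1 group were 2-fold or more apart (GSTU27 being the exception), against 69.5% of all plant probe sets. The aluminium arrays were that far apart in 5 genes and the control arrays in 6, and no share over all plant probe sets is given for these counts. The residual SD exceeded the size of the difference in 7 of 11 genes (63.6%), against 58.2% of all plant probe sets. The median residual SD was 0.89 for the tau genes and 0.79 for all plant probe sets. The 95% intervals reached from 1.67 (GSTU27) to 2.63 (GSTU23) to each side on the log2 scale, and no difference among the 11 genes was that large. In 7 of 11 genes the sign changed when some 1 array was left out, a count likewise given without a share over all plant probe sets. Without aluminium replicate 1 GSTU20 stood at 0.79, GSTU28 at 0.83, GSTU25 at 0.57, GSTU18 at −0.42, GSTU21 at −0.65 and GSTU26 at −1.32. GSTU16, GSTU22, GSTU27 and GSTU28 kept a positive difference under each such omission.

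**Figure D4:**
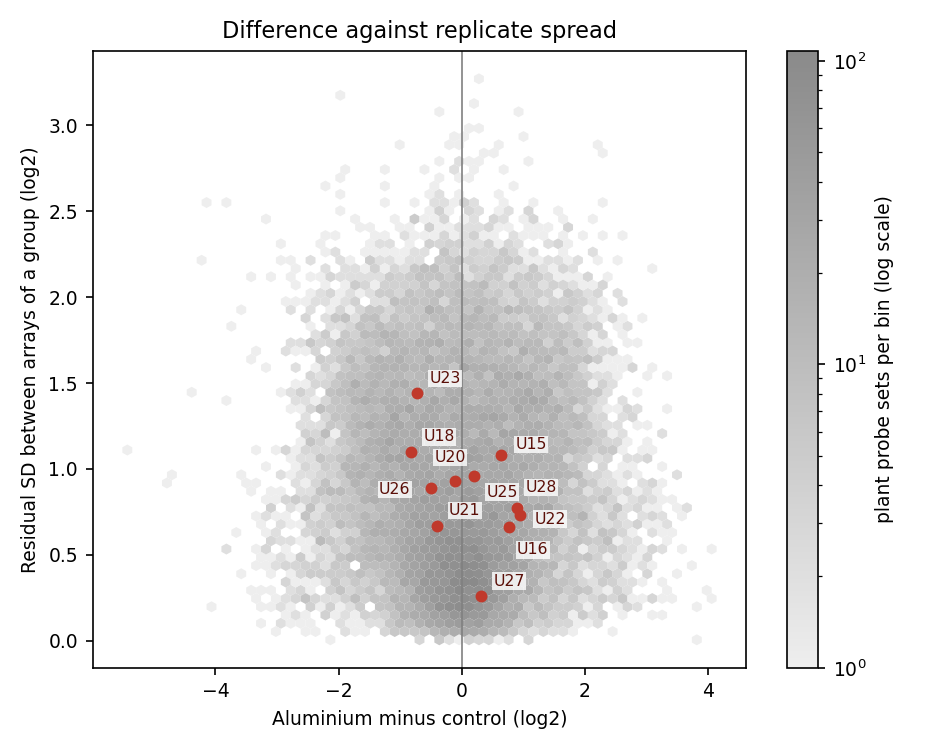
Difference between aluminium and control (horizontal axis, log2) against the residual SD between arrays of the same group (vertical axis, log2), with grey hexagons counting all 22746 plant probe sets on a log scale and red points for the 11 tau class genes, labelled without the letters GST. The tau genes lie within the bulk of the probe sets, with GSTU27 lowest at 0.26 and GSTU23 highest at 1.44 on the vertical axis.

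By array, the tau genes were lowest as a group on control replicate 1. With each gene centred on its own mean, their median was −0.56 on that array, 0.04 and 0.09 on the aluminium arrays of replicates 1 and 2, and 0.16 on control replicate 2. Over all plant probe sets the array medians lay between 0.01 and 0.03. Aluminium replicate 1 and control replicate 2 each held the highest value of 4 tau genes, against 31.8% and 21.2% of all plant probe sets. Control replicate 1 held the lowest value of 4, against 26.7%. Among 8399 genes above background on at least 1 array, the 3 whose centred profile was nearest to the mean profile of the tau genes were AT2G35410 (distance 0.078), AT2G41930 (0.087) and UBC19 (0.093), a ubiquitin-conjugating enzyme. This likeness, too, describes 4 arrays only. GSTU27 itself was 0.47 from that mean, with 4.52% of the genes nearer. GSTU16 and GSTU25 came next at 0.97, with 23.8% nearer, and GSTU23 was farthest at 1.94, with 58.3% nearer.

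Other genes of glutathione chemistry that the probe table named were few. A listed gene is called measured here only where the probe table paired a probe set with that gene alone. In the other glutathione transferase classes 3 of 25 listed genes were measured, 1 higher and 2 lower with aluminium, with 0 past limma and a median of −0.11. GSTF4, of the phi class, read 324 and 100 on the aluminium arrays and 60.6 and 51.6 on the controls, all under background, a difference of 1.47 (interval from −0.51 to 3.44, limma adjusted p = 0.966). Both aluminium arrays of GSTF4 were above both controls, most clearly in replicate 1, and the difference was 0.69 without aluminium replicate 1 and 2.24 without aluminium replicate 2. GSTL3, a lambda class enzyme that works as a thiol transferase, differed by −0.24 (limma adjusted p = 0.994), with values from −0.61 to 0.13 when 1 array was left out.

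In glutathione metabolism 3 of 25 listed genes were measured, 2 higher and 1 lower, with 0 past limma and a median of 0.58. GGCT2;3, a gamma-glutamyl cyclotransferase that degrades glutathione, read 1314 and 1003 on the aluminium arrays and 484 and 332 on the controls. Both aluminium arrays were more than 2-fold above both controls, and the difference was 1.41 in replicate 1 and 1.55 in replicate 2. The value on control replicate 2 was under the background level of that array, 478. Means at least 2-fold higher with aluminium and no overlap were found for 9.66% of all plant probe sets. Over both replicates the GGCT2;3 difference was 1.48 with a standard error of 0.69 (interval from −0.21 to 3.17, limma adjusted p = 0.966). It was from 1.22 to 1.74 when 1 array was left out. GR1, a glutathione reductase that restores reduced glutathione, read 4426 and 8910 on the aluminium arrays and 2927 and 6022 on the controls. Its groups overlapped, and its difference of 0.58 was 0.59 in replicate 1 and 0.56 in replicate 2 (limma adjusted p = 0.977). Without 1 array at a time the GR1 difference, and with it the median of these 3 genes, ranged from 0.06 to 1.1.

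Of 18 listed genes of the detoxification response, 3 were measured, 2 higher and 1 lower, with 0 past limma and a median of 0.24. That median was 0.03 without aluminium replicate 1 and 0.10 without aluminium replicate 2, and −0.03 and 0.04 between the arrays of replicates 1 and 2. UGT73B5, a glucosyltransferase of stress and defence, read 142 and 703 on the aluminium arrays and 145 and 119 on the controls, so that 1 array was high. Its difference was 1.19 (interval from −1.08 to 3.46, limma adjusted p = 0.966), but −0.03 between the replicate 1 arrays and 0.10 without aluminium replicate 2. UGT73B4, its close relative, read between 35.0 and 75.1 on the 4 arrays, all under background, and differed by −0.42 (limma adjusted p = 0.983). Of 15 listed ABCC transporters, 0 had a probe set that the probe table paired with that gene alone, and none was analysed here.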

How the data were processed

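Intensities were deposited on a linear scale, 1 value per probe set and array, for 22810 probe sets on 4 arrays. Per the submitters' processing notes, GCOS and RMA were involved, with roles not given in the sources used here. Trimmed by 2% at both ends, the mean of every array was 500.0, so the deposited intensities were globally scaled. The 64 manufacturer controls were left out of the test, and no dim probe set was left out. Genes were named through the platform's probe table, in which 13513 probe sets had 1 gene, 503 several and 8730 no name. Of the first, 13436 were matched by Entrez identifier to the TAIR10.1 table, used for names and neighbours only, so no coordinates or sequences are given. The number of arrays limits the precision.

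The groups were compared on log2(intensity + 16) with limma 3.58.1 (R 4.3.3), with group as the only term and Benjamini-Hochberg adjustment over 22746 plant probe sets. The step was tested on simulated data. Their spread between arrays was smaller than the median spread here, and their differences were larger than that of any tau gene. That test gives no measure of power in these data. Figures were made in Python 3.11.15 (matplotlib 3.10.9). All tau genes were named, and of each other list the 2 measured genes with the largest absolute difference. For genes with several probe sets, the brightest stood for the gene in the lists. The nearest genes were taken by Euclidean distance of centred profiles. The members, lists and tests were chosen with earlier results of these data known. Results were recomputed with a replicate block, after quantile normalization or median centring, without the dimmest 25% or 50% of probe sets, with pseudocounts of 1 or 64, with limma's mean-variance trend (plain or robust), without each array, and with the median of the bacterial probe sets as background. Values within each replicate number and counts by unadjusted p were chosen after seeing the data.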

Additional observations from a re-analysis of the deposited data

Results flagged for a closer look

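Aluminium replicate 1 exceeded both control arrays in signals that the comparison of genes did not use. Its 18 hybridization controls were 2.57 times as bright as on the brighter of the controls, and the probe set for 25S ribosomal RNA was 2.58 times as bright. GSTU15, GSTU16, GSTU22 and GSTU28 had their highest value on that array (4 of 11, against 31.8% of all plant probe sets). GSTU18, GSTU20 and GSTU23 had their lowest there (3 of 11, against 28.8%), so both counts were near those of all plant probe sets. The part of the array's controls in these values was not tested.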

How the results depend on the processing

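The count of 0 tau genes and 0 plant probe sets past limma held under every alternative run, and the count of all plant probe sets was 1084 at an unadjusted p under 0.05. With the replicate block, 0 tau genes passed, with a smallest adjusted p of 0.917, and 0 plant probe sets did, with 0.899. With limma's mean-variance trend the smallest adjusted p over all plant probe sets was 0.3, and 0.0954 in the robust form. For the tau genes it was 0.969 and 0.973. The deviations of same-numbered arrays had a correlation of 0.0867 across probe sets, and the labels do not say what the numbers share. Among the 11 differences, 0 of 96 values changed sign under the alternatives that kept all arrays, and 10 of 44 did when 1 array was left out. The replicate block, the mean-variance trend and leaving out dim probe sets cannot alter a difference of means here. Only quantile normalization, median centring and the pseudocounts could change a sign, so many of the 96 values were fixed in advance. With 1 array left out, the difference ranged from −0.42 (without aluminium replicate 1) to 1.69 for GSTU15, from −1.85 to 0.18 (without control replicate 2) for GSTU18, and from −1.02 to 0.79 for GSTU20, which was above 0 without aluminium replicate 1 (0.79) or control replicate 2 (0.11). It ranged from −1.04 to 0.21 (without control replicate 1) for GSTU21, and from −1.78 to 0.32 for GSTU23, above 0 without aluminium replicate 1 (0.25) or control replicate 2 (0.32). It ranged from −0.69 to 1.08 for GSTU25, below 0 without aluminium replicate 2 (−0.18) or control replicate 1 (−0.69), and from −1.32 to 0.31 (without aluminium replicate 2) for GSTU26. The cause was not tested.

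The median of the tau genes was −0.18 with the replicate 2 arrays alone, where 3 genes were higher, and ranged from 0.10 to 0.32 when 1 array was left out, with 6 to 9 genes higher. Groups did not overlap in 2 tau genes, GSTU27 and GSTU28, after quantile normalization. With 1 array left out fewer values can overlap, and the counts were 5 to 7 without overlap and 1 to 6 that were also 2-fold apart. The median of the other glutathione transferase classes was 0.40 with the replicate 1 arrays alone and ranged from −0.50 to 0.27 with 1 array left out, and that of glutathione metabolism from 0.06 to 1.1. That of the detoxification response genes ranged from 0.03 to 0.25 with 1 array left out, and was −0.03 and 0.04 with the replicate 1 and replicate 2 arrays alone and 0.72 without the dimmest 25% of probe sets. Of the 44 tau gene values, 21 lay above background and 42 above the median of the bacterial probe sets. On single arrays, 35.1% to 45.3% of all plant probe sets lay above background. Leaving out the dimmest 25% kept 10 tau genes, and the dimmest 50% kept 9. No list median could be given for ABCC transporters, of which 0 had a probe set paired with that gene alone in the probe table.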
